A study of Mus musculus with 93 samples.

Results

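The Zfp genes expressed in mouse peripheral blood cells were examined, that is, the genes named Zfp followed by a number alone. Zfp36, an mRNA decay factor of another class that shares the name, was left out. Each gene was read by its brightest probe set, judged by the mean of all 93 arrays, and it was kept where that mean reached 6 on the log2 scale. Of 304 genes with such a name, 153 were kept, out of 18193 genes named on the array and 8988 genes at 6 or more. Members were thus selected on their level over all arrays, which is no finding about that level.

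Peripheral blood cells came from female mice on an FVB/NJ background, either 28 wild type, tumor-free controls or 65 tumor-bearing MMTV/c-MYC transgenic mice, 1 array per sample. In that model the mouse mammary tumor virus promoter drives c-MYC, or a more stable point mutant of it, in mammary epithelium, and several founder lines were in use. The sources used here do not say which array came from which line. Controls were matched for age and parity, and all samples were total white blood cells left after lysis of erythrocytes. The labels name a training set with 14 controls and 32 tumor samples, and a validation set with 14 controls and 33 tumor samples. Tumor arrays were further divided by the running number in their label: training numbers from 6 to 32 and validation numbers from 9 to 33 are called late tumor here (52 arrays), and training numbers up to 5 and validation numbers up to 8 are called early tumor (13 arrays). The words early and late refer to these numbers and not to the stage of the disease.

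The division by number follows technical readings on the arrays, since the cuts were placed where control probe sets divided the tumor arrays. The 3' probe set of dap, a bacterial transcript used as a spike-in control, read 6.47 to 10.5 on every late tumor array, 2.39 to 4.58 on early tumor arrays and 2.3 to 3.84 on control arrays. The 5' minus 3' difference of the actin control, which drops when RNA is short, lay between -2 and -1.2 on early tumor arrays and between -0.9 and -0.5 on control arrays. On late tumor arrays it ran from -2.3 to -0.4 with a median of -0.5. Tumor status in late tumor arrays and the presence of the spike therefore cannot be told apart, nor can tumor status in early tumor arrays and the actin difference.

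C2H2 zinc finger proteins are the largest class of transcription factors in mammals, and most of them bind DNA through a row of zinc fingers in which each finger contacts a few bases. Many carry a KRAB domain, which recruits the corepressor Trim28 and, through it, histone methyltransferases and heterochromatin proteins, and such proteins are best known for silencing retroelements and imprinted loci. Others act in lymphocyte development, in splicing or at the ribosome, so that a shared name does not imply a shared function.

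Means of the members over all arrays ran from 6.005 for Zfp296, a factor known from pluripotent cells, to 11.68 for Zfp106, an RNA-binding protein, with a median of 7.54. Levels above 10 were reached by 12 members. Just inside the threshold stood Zfp296, Zfp90 and Zfp637 at 6.005, 6.01 and 6.06, and just outside it stood Zfp346, Zfp827 and Zfp142 at 5.90, 5.89 and 5.88. The group mean was at 6 or more in all 3 groups for 121 members, and for 4 members in 1 group only. A level of 6 was reached by 149 members in control, 148 in late tumor and 126 in early tumor arrays, so the threshold itself let through some members that were low in early tumor arrays.

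The mean over the 153 members was 7.84 ± 0.136 (SD, n = 28) in control, 7.67 ± 0.165 (SD, n = 52) in late tumor and 7.53 ± 0.229 (SD, n = 13) in early tumor arrays. Control arrays ran from 7.47 to 8.02, late tumor arrays from 6.91 to 8.15 and early tumor arrays from 6.95 to 7.79, so the groups overlapped. Over all genes at 6 or more the same mean was 8.83 ± 0.0707 in control, 8.84 ± 0.0774 in late tumor and 8.56 ± 0.168 in early tumor arrays. The early tumor mean was thus below that of control arrays both for Zfp genes and for expressed genes in general, whereas the late tumor mean was below it for the Zfp genes alone of the pair. The lowest late tumor array, number 9 of the validation cohort, read 6.91 with the next at 7.39, and the lowest early tumor array, number 2 of the validation cohort, read 6.95 with the next at 7.27. Control array 11 of the training cohort was the lowest control at 7.47, close to the next at 7.56. The highest late tumor array, number 19 of the validation cohort, read 8.15 with the next at 7.90. The mean of its platelet markers was 8.08, against a late tumor median of 12.5. Its B cell marker mean of 6.65 was the lowest of that group. It was kept when other arrays were left out.

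**Figure D1:**
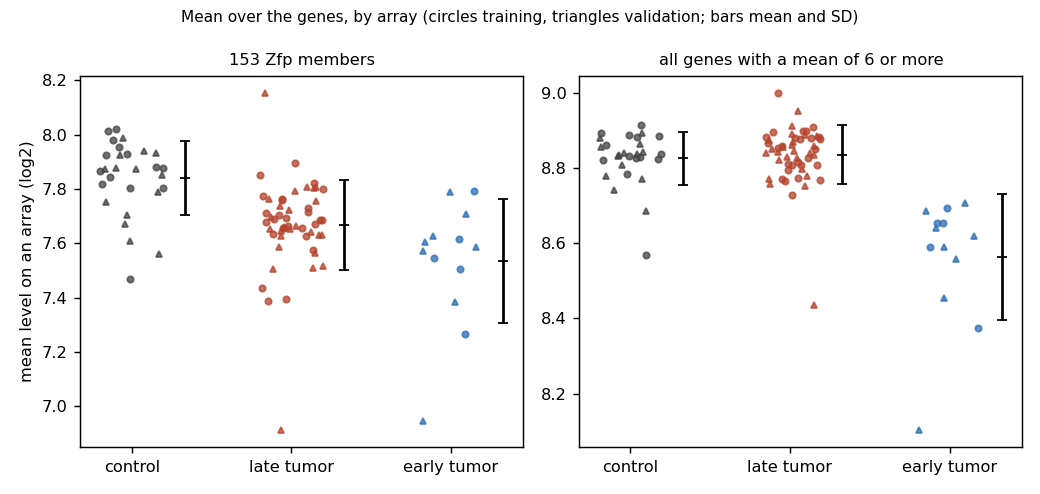
Mean level per array on the log2 scale, over the 153 Zfp members (left) and over all genes at 6 or more (right), for 28 control, 52 late tumor and 13 early tumor arrays; circles are training and triangles validation arrays, and bars give the mean and SD. The Zfp mean was 7.84 in control, 7.67 in late tumor and 7.53 in early tumor arrays.

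The first comparison asked which Zfp transcripts differed between late tumor and control arrays. By limma, with Benjamini-Hochberg adjustment over all probe sets and a call at an adjusted p under 0.05, 69 members were lower (45.1%) and 43 higher (28.1%) in late tumor arrays. Among all genes at 6 or more, 33.8% were called lower and 34.5% higher, and among all genes 20.5% and 25.6%. The median difference of members was -0.12 on the log2 scale, against 0.01 for all genes at 6 or more. Falls were also the larger changes: 12 of the 153 members fell by more than 1 and 0 rose by more than 1, and the differences ran from -2.65 to 0.96. Among the 8988 genes at 6 or more, 238 fell and 243 rose by more than 1. Because blood is a mixture, fewer cells of a type and less RNA per cell cannot be told apart here.

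**Figure D2:**
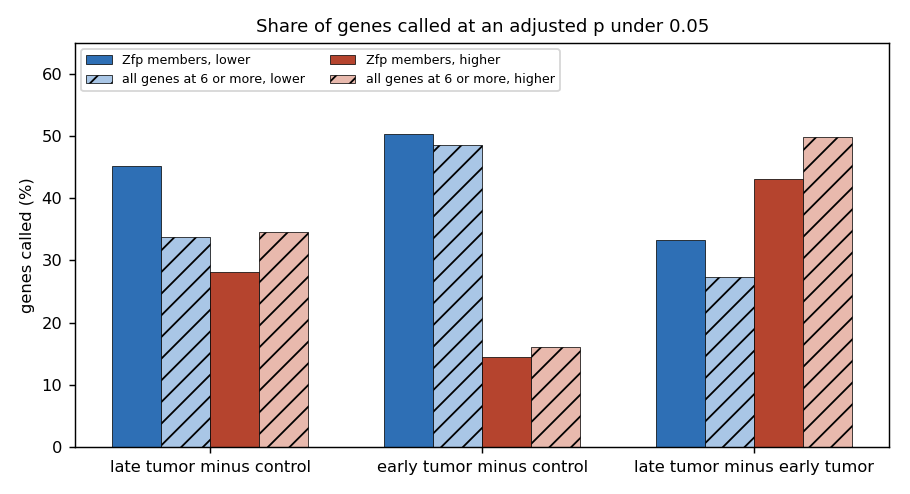
Share of genes called lower (blue) and higher (red) in each comparison, in percent, for the 153 Zfp members (solid) and all 8988 genes at 6 or more (hatched). In late tumor arrays 45.1% of members were lower, against 33.8% of all expressed genes, while in early tumor arrays the shares were 50.3% and 48.6%.

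The largest fall was that of Zfp934, a member of a zinc finger gene cluster. Its level was 7.45 to 9.21 (median 8.32) in control, 4.82 to 6.75 (median 5.66) in late tumor and 5.78 to 8.34 (median 7.61) in early tumor arrays. All 52 late tumor arrays lay below the lowest control array, a difference of -2.65 ± 0.11 (SE, adjusted p = 3.4e-38). It was the lowest of the 18193 differences between late tumor and control arrays. Zfp949 read 9.14 to 10.0 in control, 7.03 to 8.78 in late tumor and 8.44 to 9.85 in early tumor arrays, with medians of 9.71, 8.05 and 9.15. Here too the 52 late tumor arrays all lay below the controls, by -1.65 ± 0.08 (SE, adjusted p = 2.5e-33). Zfp326, a protein that couples transcription to splicing, ran from 7.48 to 8.31 in control and from 5.94 to 7.42 in late tumor arrays, again without overlap, and fell by 1.31 ± 0.07 (SE, adjusted p = 5.3e-29).

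Other large falls were less even. Zfp318, which in B cells is needed for the expression of IgD, read 7.76 to 9.27 (median 8.60) in control and 4.17 to 8.28 (median 6.95) in late tumor arrays. It lay below the lowest control on 49 of 52 arrays and differed by -1.61 ± 0.13 (SE). Its other probe sets at means of 6.33 and 6.30 differed by -0.006 and -0.04 and were not called. Those at 6.20 and 5.75 were called lower, at -0.66 and -0.98. Zfp560 fell by 1.42 ± 0.10 (SE) and lay below the lowest control on 51 arrays, while a single array, at 8.15, stood above the highest control. Zfp40 had a similar difference of -1.62 ± 0.18 (SE) but spread from 2.96 to 9.19 in late tumor arrays, and only 15 of them lay below the controls. B cell markers were lower on the same arrays, with 18 of 20 called lower at a median difference of -1.01, and 11 of 18 T cell markers were lower at a median of -0.46. Neutrophil markers were higher, 15 of 18 at a median of 0.75, and the part of these shifts in the Zfp values is shown only so far as a fit with the B cell, T cell and Neutrophil means as covariates goes: it left 58 members lower and 45 higher (37.9% and 29.4%), with 27.8% and 35.3% of all genes at 6 or more. Leukocyte counts that the study made on blood are not tied to single arrays and were not used here.

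Rises in late tumor arrays were smaller. Zfp335, a factor needed for T cell maturation, read 5.83 to 7.28 (median 6.37) in control and 6.49 to 8.08 (median 7.34) in late tumor arrays, a rise of 0.96 ± 0.10 (SE, adjusted p = 2.1e-14). It lay above the highest control on 28 of 52 arrays. Zfp276 rose by 0.77 ± 0.08, Zfp948 by 0.73 ± 0.12, Zfp821 by 0.69 ± 0.10 and Zfp52 by 0.68 ± 0.11 (all SE). Of these, Zfp276 was the most even, with 41 late tumor arrays above the highest control.

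The calls recurred when each cohort was fitted alone, with its own controls. In both cohorts 51 members were called lower and 25 higher in late tumor arrays, and 0 were called in opposite directions, where 22.9% and 23.2% of all genes at 6 or more were called in both. The members' shares were 33.3% and 16.3%. A fit with the first 3 principal components of the array's control probe sets as covariates left 8 members lower and 26 higher in late tumor arrays, with a median difference of 0.40. The members' shares were then 5.23% and 17%, against 12.6% and 19.9% of all genes at 6 or more, whose median was 0.31. The dap probe sets, which separated these groups, are among the control probe sets.

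The second comparison set early tumor against control arrays. Of the members, 77 were lower (50.3%) and 22 higher (14.4%), with a median difference of -0.27. These shares were close to the background, since 48.6% of all genes at 6 or more were called lower and 16.1% higher, with a median of -0.25, and among all genes the shares were 29% and 34.3%. Falls exceeding 1 were seen in 12 of the 153 members and rises exceeding 1 in 0. Among the 8988 genes at 6 or more, 787 fell and 98 rose by more than 1. Both cohorts called 45 members lower and 6 higher (29.4% and 3.92%), against 30.8% and 7.04% of all genes at 6 or more, and again 0 in opposite directions. After quantile normalization between arrays, 55 members were lower and 35 higher, with 37.6% and 21.2% of all genes at 6 or more, and with the actin difference as a covariate 73 were lower and 9 higher (47.7% and 5.88%), with 41.2% and 11.6% of all genes at 6 or more.

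Zfp90 fell furthest, from 4.31 to 6.73 (median 6.17) in control arrays to 3.72 to 5.13 (median 4.10) in early tumor arrays. The difference was -1.70 ± 0.17 (SE, adjusted p = 9.7e-15), while in late tumor arrays, at 4.43 to 7.25, it was 0.24 ± 0.12 and was not called. Zfp637 differed by -1.51 ± 0.14 and Zfp335 by -1.36 ± 0.14 (SE), and Zfp335 lay below the lowest control on 11 of 13 early tumor arrays. Zfp90 and Zfp637 stood just inside the level threshold, which they passed by their levels in control and late tumor arrays. So close to it, the threshold itself favors members that are low in early tumor arrays. Among the 5 largest falls that of Zfp639 was the most even: its 13 early tumor arrays, at 5.62 to 7.27, all lay below the controls at 7.28 to 8.22, by -1.28 ± 0.12 (SE, adjusted p = 3e-16). Zfp961 read 7.64 to 9.02 in control and 6.36 to 8.14 in early tumor arrays, and fell by 1.22 ± 0.13 (SE).

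Rises in early tumor arrays were led by Zfp703, a corepressor known as an oncogene of luminal breast cancer. It read 7.72 to 8.93 (median 8.18) in control and 8.68 to 9.96 (median 9.19) in early tumor arrays, of which 9 of 13 lay above the highest control, and rose by 0.96 ± 0.12 (SE, adjusted p = 1.3e-10). Zfp91, an atypical ubiquitin ligase of noncanonical NF-kappaB signaling, rose by 0.79 ± 0.11, and Zfp800, Zfp87 and Zfp691 by 0.66 ± 0.10, 0.65 ± 0.09 and 0.62 ± 0.12 (all SE). Among the early tumor arrays 10 of 13 exceeded the highest control for Zfp91 and Zfp800. With the leukocyte means as covariates the count of members lower in early tumor arrays dropped to 27, with 31 higher and a median of 0.07, while 26.1% of all genes at 6 or more were called lower and 16.9% higher. On these arrays 16 of 20 B cell markers were called lower, at a median of -1.14, and 15 of 18 T cell markers, at a median of -0.97. Of NK cell markers 8 of 14 were lower, at a median of -0.52, and of erythroid markers 7 of 13 were higher, at a median of 0.44.

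**Figure D3:**
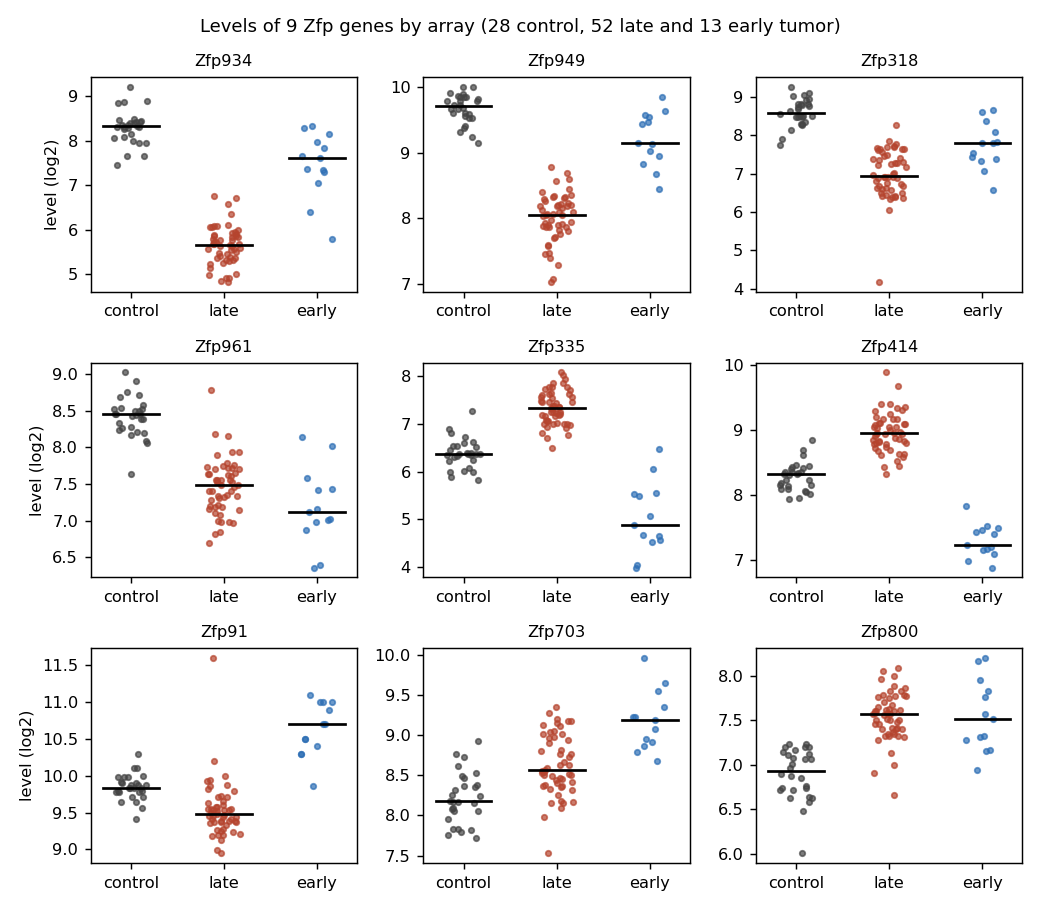
Levels on the log2 scale of 9 Zfp genes on each control (28), late tumor (52) and early tumor (13) array; points are arrays and lines medians. Zfp934 and Zfp949 did not overlap between late tumor and control arrays, and Zfp335 and Zfp414 were high in late and low in early tumor arrays.

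Late tumor and early tumor arrays were then compared with each other. Here 51 members were lower and 66 higher in late tumor arrays (33.3% and 43.1%), with a median difference of 0.08, against 27.3% and 49.8% and a median of 0.26 for all genes at 6 or more, and 38.3% and 31.5% for all genes. Quantile normalization moved the counts to 66 lower and 53 higher (43.1% and 34.6%) and the median to -0.09, with 32.6% and 43% and a median of 0.10 for all genes at 6 or more. The differences ran from -1.80 for Zfp934 to 2.31 for Zfp335. Zfp90 (1.94), Zfp637 (1.80), Zfp821 (1.72) and Zfp414 (1.66) were the other large rises, and Zfp317 (-1.30), Zfp839 (-1.21), Zfp949 (-1.19) and Zfp40 (-1.13) the other large falls. For Zfp90 and Zfp637 the limit from the level threshold given above holds here too. The range of Zfp414 was 8.32 to 9.88 in late tumor and 6.89 to 7.83 in early tumor arrays, with controls between them at 7.94 to 8.84. All 13 early tumor arrays lay below the lowest control, and 33 of 52 late tumor arrays lay above the highest.

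To set the tumor groups side by side without shared controls, late tumor arrays were set against training controls, and early tumor arrays against validation controls. Of the members 26 were lower in both (16.99%) and 5 higher in both (3.27%), where 12.2% and 2.96% of all genes at 6 or more were. Opposite calls were made for 16 members, 6 of them lower in late and higher in early tumor arrays (3.92%, background 4.32%) and 10 the other way round (6.54%, background 14%). Zfp335 (0.95 and -1.35), Zfp414 (0.70 and -1.01) and Zfp821 (0.70 and -1.04) stood out among the latter, and Zfp317 (-0.99 and 0.32) and Zfp91 (-0.31 and 0.79) among the former. For Zfp91 this holds for the brightest probe set alone, since its second set rose by 0.76 in late tumor arrays, against all controls.

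**Figure D4:**
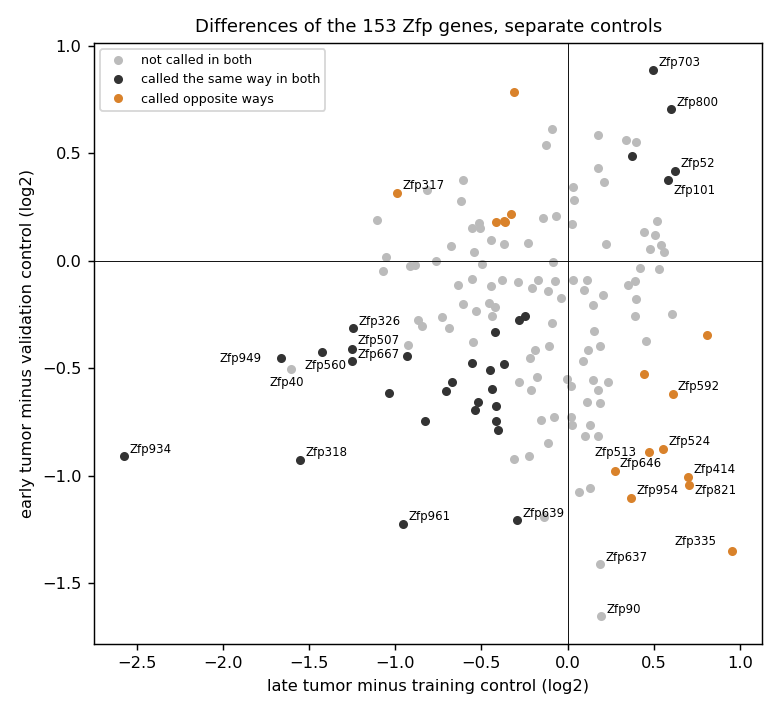
Log2 differences of the 153 Zfp genes in late tumor arrays against training controls (horizontal) and early tumor arrays against validation controls (vertical); each point is a gene. Black points were called the same way in both, 26 lower and 5 higher, and orange points in opposite directions, 16 in all.

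A smaller set was called the same way by the probe set read, in both tumor groups against separate controls and within both cohorts. It held 8 members called lower, led by Zfp961, Zfp318, Zfp934, Zfp512 and Zfp213, and 2 called higher, Zfp800 and Zfp703. How many of all genes at 6 or more met these conditions was not counted. The comparisons share arrays, so they are not separate repeats. Zfp961 differed by -0.95 ± 0.09 in late and -1.22 ± 0.13 in early tumor arrays, Zfp512 by -0.75 ± 0.11 and -0.83 ± 0.15, and Zfp213 by -1.01 ± 0.09 and -0.64 ± 0.13 (all SE). Zfp800 read 6.01 to 7.24 (median 6.93) in control, 6.66 to 8.09 (median 7.57) in late tumor and 6.94 to 8.20 (median 7.52) in early tumor arrays. It lay above the highest control on 48 of 52 late tumor arrays and rose by 0.65 ± 0.07 and 0.66 ± 0.10 (SE). Its second probe set, at a mean of 6.18, fell by 0.90 in late tumor arrays (adjusted p = 1.4e-10), and with the median of all its probe sets the late tumor difference was -0.062. Zfp703 was higher by 0.41 ± 0.09 in late and 0.96 ± 0.12 in early tumor arrays (SE). With an interaction of tumor group and cohort, limma called 0 members, though 3 members in late and 20 in early tumor arrays had an unadjusted p under 0.05.

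Members were also grouped by what they are known to do, in 4 short lists whose counts stand beside a background, over all genes at 6 or more, of 33.8% lower and 34.5% higher in late and 48.6% and 16.1% in early tumor arrays. Of 6 with lymphocyte roles, 4 were lower and 2 higher in late tumor arrays. Zfp318 and Zfp91 were described above, Zfp148, a factor of GC-rich promoters, fell by 0.71 ± 0.08, and Zfp131, a BTB zinc finger protein, by 0.40 ± 0.05. Zfp335 rose, and so did Zfp608, a repressor of the recombination activating genes in thymocytes, by 0.37 ± 0.13 (all SE). In early tumor arrays 3 of the 6 were lower and 1, Zfp91, was higher. Other probe sets of Zfp148, which was among the lower members in both tumor groups, were called both ways. Their called differences were -0.55, -0.39, 0.51 and 0.98 in late and -0.36, 0.50 and 0.85 in early tumor arrays.

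Of 8 members with roles in RNA or at the ribosome, 3 were lower and 3 higher in late tumor arrays, and 4 lower and 1 higher in early tumor arrays. Zfp598, the ubiquitin ligase that marks collided ribosomes, read 6.04 to 7.32 in early tumor against 6.87 to 7.68 in control arrays and fell by 0.68 ± 0.11 there, while it rose by 0.20 ± 0.08 in late tumor arrays (SE). Zfp622 and Zfp593, both factors of large ribosomal subunit assembly and both read by probe sets that can match other transcripts, fell by 0.41 ± 0.11 and 0.73 ± 0.12 in early tumor arrays, and their late tumor differences of -0.09 and -0.07 were not called. Zfp207, which binds the spindle checkpoint protein Bub3, fell by 0.77 ± 0.08 in late tumor arrays, and its early tumor difference was 0.00 ± 0.11. Its other probe sets with means of 10.31, 10.26, 9.62 and 9.33 were called lower in early tumor arrays, at -0.84, -0.46, -1.23 and -0.72. A dimmer set, at 5.91, differed by -0.09 there and was not called. Zfp638, which silences unintegrated retroviral DNA, rose by 0.18 ± 0.07 and Zfp830 by 0.48 ± 0.08 in late tumor arrays (SE).

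The 6 members with roles in silencing retroelements or imprinted genes fell in part. In late tumor arrays Zfp266 fell by 1.06 ± 0.07, from a median of 9.59 in control to a median of 8.46 in late tumor arrays, Zfp568, a repressor of an Igf2 transcript, by 0.91 ± 0.09 and Zfp445, an imprint protector, by 0.39 ± 0.07. Zfp932 rose by 0.30 ± 0.07 and Zfp638 rose as given above, and Zfp809, which targets the primer binding site of murine leukemia virus, differed by -0.11 ± 0.08 and was not called (all SE). In early tumor arrays 3 were lower, Zfp809 by -0.69 ± 0.12, Zfp445 by -0.64 ± 0.10 and Zfp932 by -0.47 ± 0.11, and 0 were higher. Of 8 members with general chromatin or tumor roles, 5 were lower and 1, Zfp703, was higher in late tumor arrays. Zfp217, a gene amplified in breast cancers, differed by -0.14 ± 0.06, Zfp410, an activator of Chd4, by -0.35 ± 0.09 and Zfp451, a SUMO ligase, by -0.54 ± 0.11, while Zfp384 and Zfp746 were not called in either tumor group, with differences of 0.04 and 0.06 in late tumor arrays (SE).

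The corepressor machinery that KRAB proteins recruit was listed apart, as 34 measured genes. In late tumor arrays 17 were lower and 9 higher, at a median of -0.21, and in early tumor arrays 14 lower and 9 higher, at a median of -0.03. All genes at 6 or more were 33.8% lower and 34.5% higher in late tumor arrays (median 0.01), and 48.6% and 16.1% in early tumor arrays (median -0.25). Trim28, the corepressor itself, rose by 0.33 ± 0.09 in late tumor arrays and fell by 0.76 ± 0.13 in early tumor arrays, and Setdb1, the histone methyltransferase it recruits, rose by 0.20 ± 0.08 and fell by 0.84 ± 0.12. Cbx1, a heterochromatin protein, went the other way on the probe set read, with -0.76 ± 0.06 and 0.34 ± 0.09. Of its 4 other probe sets, 3 were called higher and 1 lower in late tumor arrays, and 1 was called lower and 0 higher in early tumor arrays. Tasor, of the HUSH silencing complex, fell by 0.89 ± 0.07 and 0.30 ± 0.10, and Smarcad1, a nucleosome remodeler, by 0.95 ± 0.09 and 0.45 ± 0.13. Morc3 fell by 0.56 ± 0.05 in late tumor arrays, and its early tumor difference of 0.01 ± 0.07 was not called (all SE). In late tumor arrays another probe set of Setdb1 was called lower, and the other set of Smarcad1 was called higher.

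Expressed Zbtb genes, a related class that joins zinc fingers to a BTB domain, served as a comparison. Of 27, 13 were lower and 4 higher in late tumor arrays (48.1% and 14.8%), at a median of -0.22. In early tumor arrays 6 were lower and 11 higher (22.2% and 40.7%), at a median of 0.10, where the Zfp members were 50.3% lower and 14.4% higher at a median of -0.27. Zkscan and Zscan genes were too few for shares: of 8, 4 were lower and 2 higher in late, and 5 lower and 0 higher in early tumor arrays.

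Several members were read by more than 1 probe set, and these did not always move together. A single probe set read 65 members and several read 88. Of the 69 members lower in late tumor arrays, 47 had other probe sets: in 20 of them another set was called lower too (42.6%), and in 18 another set was called higher (38.3%). Among all genes at 6 or more that were called lower, these shares were 54.3% and 34.4%. For members called higher in late tumor arrays the shares were 60% and 25%, against 67.5% and 16.1% of all such genes, and for those lower in early tumor arrays 61.5% and 28.2%, against 61.0% and 28.3%. For members lower in late than in early tumor arrays they were 33.3% and 60.6%, against 52.8% and 53.3%.

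The disagreement reached probe sets of similar brightness. The brighter set of Zfp949, at a mean of 8.68, fell by 1.65 in late tumor arrays, while the other, at 8.36, rose by 0.54 (adjusted p = 3.2e-07). The sets of Zfp91 averaged 9.78 and 9.27 and differed by -0.31 and 0.76, and those of Zfp281, a factor known from embryonic stem cells, averaged 10.17 and 8.76 and differed by -0.43 and 0.87. In early tumor arrays both sets of Zfp91 rose, by 0.79 and 0.62. The second probe set of Zfp934, at a mean of 5.07, differed by 0.19 in late tumor arrays and was not called, and it fell by 0.77 in early tumor arrays. Of 48 members with a second probe set at 6 or more, both sets were called in 29, and in 12 of these the directions were opposite (41.4%), Zfp800 among them. Over all genes with 2 such sets both called in late tumor arrays, 453 of 1949 were opposite (23.2%). Directions given for single members and single corepressor genes therefore hold for the probe set read, and which transcript forms the sets detect was not tested.

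**Figure D5:**
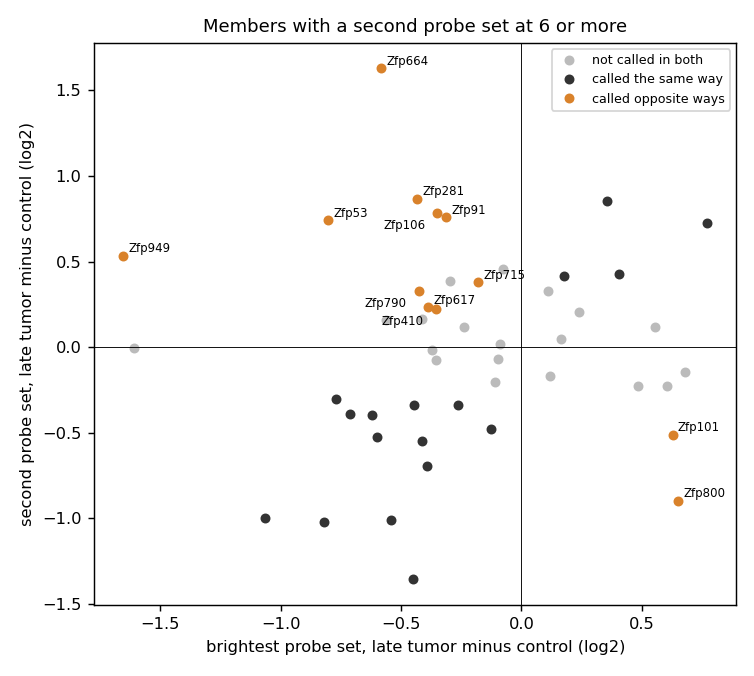
Late tumor minus control difference (log2) of the brightest (horizontal) and second brightest (vertical) probe set of 48 Zfp members whose second set averaged 6 or more; each point is a gene. Orange points, 12 of 29 with both sets called, moved in opposite directions, among them Zfp949, Zfp91 and Zfp281.

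Zfp genes lie in clusters, and 73 of the 153 members were next to another Zfp gene among the protein-coding genes of the RefSeq gene table (GRCm38.p6). In 22 pairs both neighbors were members. In late tumor arrays 7 pairs were called in the same direction, 5 in opposite directions, and in 10 at least 1 gene was not called. Of all 153 members, 45.1% were called lower and 28.1% higher on those arrays. Zfp935 rose by 0.66 beside Zfp934, which fell by 2.65, and Zfp81 fell by 1.00 beside Zfp101, which rose by 0.63. The second probe set of Zfp101, however, fell by 0.51 and was called, so this opposite pair rests on the set read. The run of Zfp952, Zfp763 and Zfp563 fell throughout, by 0.90, 0.93 and 0.59. In early tumor arrays 4 pairs were called in the same direction and 3 in opposite directions, where 50.3% of all members were lower and 14.4% higher. Pairs of members that are not neighbors were not counted, so whether position matters was not tested. Neighboring zinc finger genes can be alike in sequence, and cross-hybridization between them was not tested.

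Promoters were compared as a feature that the rule had not used. RefSeq promoters (GRCm38.p6) were matched for 123 members, and Zfp934 and Zfp703 had none in the table. In the 250 bases before the start, members held a median of 12 CpG dinucleotides, against 16 for all genes at 6 or more and 6 for all promoters. The letters CCAAT, on either strand, were found in 50.4% of members' promoters, against 36.3% of those of all genes at 6 or more and 34.5% of all 27025 promoters. GGGCGG, the core of a GC box, was found in 54.5%, 60.7% and 32.9%, and CCGGAAG, an ETS core, in 15.4%, 15.3% and 7.05%. TCGCGA was found in 5.69%, 4.49% and 2.13%, GCATGCGC, part of an NRF1 motif, in 4.07%, 4.70% and 2.32%, ATGGCGGC, part of a YY1 motif, in 2.44%, 2.06% and 1.04%, and TATAAA in 7.32%, 6.04% and 12.97%. Members lower and members higher in late tumor arrays were alike in CCAAT (51.8% of 56 and 52.9% of 34), and GGGCGG was in 58.9% and 44.1% of them. No test was made of these shares, and a match describes letters in the window, not a binding site.

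Upstream windows of 4 members are given to show how promoters of 3 members that fell and 1 that rose in late tumor arrays differed in CpG and motifs; capitals mark matches to the motifs above on either strand, each window reads 5′ to 3′ in the direction of the gene and ends at the last base before the start. Zfp949 (chr9:88547770-88548019, plus strand), Zfp318 (chr17:46383516-46383765, plus strand) and Zfp961 (chr8:71950816-71951065, plus strand) fell in late tumor arrays, and Zfp335 (chr2:164911751-164912000, minus strand) rose there and fell in early tumor arrays.
Zfp949: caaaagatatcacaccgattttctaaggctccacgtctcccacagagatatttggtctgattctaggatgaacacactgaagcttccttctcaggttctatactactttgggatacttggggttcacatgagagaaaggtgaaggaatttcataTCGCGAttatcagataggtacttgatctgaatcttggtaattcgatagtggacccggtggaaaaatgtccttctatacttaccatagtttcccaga
Zfp318: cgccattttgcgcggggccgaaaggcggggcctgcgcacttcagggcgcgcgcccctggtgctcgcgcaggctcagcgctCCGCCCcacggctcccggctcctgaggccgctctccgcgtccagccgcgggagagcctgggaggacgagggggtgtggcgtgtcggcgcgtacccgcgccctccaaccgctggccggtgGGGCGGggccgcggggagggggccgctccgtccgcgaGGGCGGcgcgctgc
Zfp961: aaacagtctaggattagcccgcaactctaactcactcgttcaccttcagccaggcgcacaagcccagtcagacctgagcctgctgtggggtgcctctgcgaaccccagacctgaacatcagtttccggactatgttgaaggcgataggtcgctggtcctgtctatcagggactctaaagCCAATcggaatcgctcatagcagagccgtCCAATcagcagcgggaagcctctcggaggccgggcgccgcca
Zfp335: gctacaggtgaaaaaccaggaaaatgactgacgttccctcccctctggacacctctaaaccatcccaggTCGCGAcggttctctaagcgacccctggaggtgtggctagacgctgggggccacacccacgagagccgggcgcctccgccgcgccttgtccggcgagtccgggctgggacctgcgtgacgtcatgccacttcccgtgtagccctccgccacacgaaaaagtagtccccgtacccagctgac
The window of Zfp949 is poor in CpG, with 6 and a GC content of 41.2%, and holds a single TCGCGA. That of Zfp318 holds 39 CpG, a GC content of 79.6% and 3 GC boxes. That of Zfp961 holds 2 CCAAT boxes near the start, and that of Zfp335 holds 21 CpG and a single TCGCGA.

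The identity of the samples was checked against marker lists. B cell markers were at 6 or more for 19 of 20 measured genes in each group and neutrophil markers for 16 of 18, whereas 1 of 15 mammary epithelial markers reached 6 in any group. Platelet markers reached 6 for 13 of 13 in each group. Erythroid markers did so for 9 of 13 in control, 10 in late tumor and 11 in early tumor arrays. The samples thus also held platelet and erythroid transcripts. Without 4 arrays, namely the 3 with the lowest Zfp mean in their group and late tumor array 22 of the training cohort, whose actin difference was -2.3, 71 members were lower and 41 higher in late tumor (46.4% and 26.8%, against 34.4% and 34.8% of all genes at 6 or more) and 71 lower and 24 higher in early tumor arrays (46.4% and 15.7%, against 46.9% and 17.2%).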

How the data were processed

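RNA of mouse white blood cells was amplified and hybridized to Affymetrix Mouse Genome arrays. The log2 values the authors deposited were made by RMA (background correction, quantile normalization, median polish), of a version not given in the sources used here. A standardization by principal components of control probe sets belongs to the study's methods. Nothing states whether it is in the deposited table. Values carry 3 significant digits. Arrays give no counts, so their number limits the precision. The labels name no animals, so p-values measure the spread between arrays.

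Of the probe sets, 45037 were not controls and were all tested, and 34945 had 1 gene symbol in the platform annotation, which gave 18193 genes. Control or tumor status, cohort and running number came from the labels. The cuts in the numbers are not in the labels, and were placed where control probe sets divided the tumor arrays. limma 3.58.1 in R 4.3.3 (lmFit, then eBayes with trend, two-sided) was fitted on the 93 arrays together, with a cohort covariate, and p-values were adjusted by Benjamini-Hochberg over all probe sets, with calls at an adjusted p under 0.05. Cohorts alone, separate controls and an interaction with cohort were fitted likewise, and the fit was tested on simulated data.

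Members, lists and groups were chosen with earlier results of these data known. Named were, per comparison, the 5 largest falls and 5 largest rises among called members, members of role lists, genes beside the level threshold, members called alike in both tumor groups and cohorts, and genes of the KRAB corepressor list with the smallest p. Other members named, for opposite calls, probe sets or neighbors, were chosen after their values were seen. Alternatives were another prior, array weights, a filter on dim probe sets, array scaling, a replicate block, covariates, the median of a gene's probe sets, and level thresholds of 5 and 7. Leaving out 4 arrays was added after seeing the data.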

Additional observations from a re-analysis of the deposited data

Results flagged for a closer look

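Against separate controls, 16 members were called in opposite directions in late and early tumor arrays. Their differences between the tumor groups are given as a description, since the opposite calls chose them. Lower in late than in early tumor arrays were Zfp317 by -1.30, Zfp91 by -1.10, Zfp655 by -0.60, Zfp106 by -0.59, Zfp263 by -0.56 and Zfp236 by -0.53 on the log2 scale. Higher in late than in early tumor arrays were Zfp276 by 1.08, Zfp959 by 1.16, Zfp592 by 1.23, Zfp646 by 1.33, Zfp524 by 1.42, Zfp513 by 1.43, Zfp954 by 1.53, Zfp414 by 1.66, Zfp821 by 1.72 and Zfp335 by 2.31. The actin difference and the dap spike also differed between these groups, and their part in the values cannot be told apart from the groups.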

How the results depend on the processing

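Counts and medians of members were recomputed under 15 alternatives and 1 added after seeing the data, and counts that overlap cohorts or groups and the interaction under those that applied. With components of the control probe sets as covariates, 8 members were lower and 26 higher in late tumor than control arrays (median 0.40), 9 were lower in late than early tumor arrays (median 0.60), late tumor calls shared by both cohorts were 1 lower and 1 higher, early tumor calls shared by both cohorts were 19 lower, and 1 was lower in both tumor groups against separate controls. With leukocyte means as covariates, 27 were lower in early tumor arrays (median 0.070), 41 were higher in late than early tumor arrays (median -0.14), calls shared by both cohorts were 16 higher in late, 9 lower and 10 higher in early tumor arrays, 4 were lower in both tumor groups, and the interaction called 1. With the actin difference, 9 were higher in early tumor arrays (median -0.44), 31 lower in late than early tumor arrays, 25 lower and 0 higher in early tumor arrays in both cohorts, 2 higher in both tumor groups, and the interaction called 1. After quantile normalization, 35 were higher in early tumor arrays (median -0.12), the late minus early median was -0.093, both cohorts called 24 lower and 12 higher in early tumor arrays, 15 were lower in both tumor groups, and the interaction called 3, against 1 without the intensity trend. Each cohort alone called 14 higher in early tumor arrays (9.15%). Of all genes at 6 or more, 14% were called higher there in training and 9.25% in validation arrays. For late minus early tumor arrays with control components, 5.88% of members and 13.1% of all such genes were lower. With the actin difference the lower shares were 20.3% and 21.1%, and with leukocyte means the higher shares were 26.8% and 39.9%. A threshold of 7 kept fewer members, so its counts cannot be set against those at 6. Shares of all genes at 7 or more were not computed. With that threshold, 25 were higher in late and 40 lower in early tumor arrays, and 30 higher in late than early tumor arrays. Both cohorts called 15 higher in late and 22 lower in early tumor arrays, and 17 were lower in both tumor groups. The causes were not tested.

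Equal label numbers in different groups are not stated to mark a shared animal or batch, although the numbers went along with the dap reading within tumor arrays. Deviations of same-numbered arrays in different groups correlated with a median r of -0.01, and 21 of 59 pairs exceeded 0.1. Pairs with unequal numbers in different groups also had a median r of -0.01, and 796 of 2437 exceeded 0.1. With the number as a replicate block, 59 members were lower and 25 higher in late tumor arrays (38.6% and 16.3%, against 28.9% and 25.3% of all genes at 6 or more), 71 lower and 17 higher in early tumor arrays (46.4% and 11.1%, against 46.5% and 14.3%), both cohorts called 23 lower and 1 higher in late tumor arrays, and 3 were higher in both tumor groups.

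Of 113 called differences of single named members, 41 of the recomputed values changed sign, 172 lost the call and 1369 kept both. With the median of all probe sets of a gene, late minus control became 0.70 for Zfp106, 0.22 for Zfp281, 0.051 for Zfp292, 0.14 for Zfp40, 0.22 for Zfp410, -0.062 for Zfp800, -0.16 for Zfp830 and 0.38 for Zfp91. Early minus control became -0.071 for Zfp106, 0.24 for Zfp148, 0.20 for Zfp445 and 0.27 for Zfp451, and late minus early 0.77 for Zfp106, 0.36 for Zfp207, 0.064 for Zfp266, 0.35 for Zfp318, -0.89 for Zfp445 and -0.066 for Zfp622. With the control components, late minus control became 0.042 for Zfp131, 0.48 for Zfp217, 0.48 for Zfp292, 1.08 for Zfp40, 0.35 for Zfp410, 0.44 for Zfp445, 1.23 for Zfp451, 0.33 for Zfp512, -0.63 for Zfp608, 0.25 for Zfp639, 0.26 for Zfp91 and 0.15 for Zfp961, and late minus early 0.19 for Zfp318, 1.36 for Zfp40, 0.18 for Zfp568 and -0.021 for Zfp746. With the leukocyte means, late minus early became -0.088 for Zfp445 and -0.00294 for Zfp638, early minus control 0.17 for Zfp451 and 0.091 for Zfp560, and late minus control 0.11 for Zfp639. With the actin difference, early minus control became 0.046 for Zfp148 and -0.19 for Zfp317.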
